A study of Mus musculus with 22 samples.

Results

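The Polycomb complex genes described here are *Ezh1*, *Ezh2*, *Suz12*, *Eed*, *Mtf2*, *Jarid2*, *Rnf2*, *Pcgf6*, *Yaf2* and *Asxl2*, which are 10 of the 23453 gene symbols in the count table. They were chosen by symbol as subunits and partners of Polycomb repressive complexes 1 and 2 (PRC1 and PRC2), and all 10 were found. RNA was measured in 22 single astrocytes cultured from the cortex of newborn C57BL/6 mouse pups (P0-P1). Each cell was picked with a glass pipet after its calcium response to ethanol (EtOH) had been imaged. There were 6 S-type cells, whose calcium signal rose and decayed slowly, 6 T-type cells with a transient rise, 5 M-type cells with a mixed signal and 5 cells without a response (NR). All groups, NR included, had been exposed to EtOH and then to ATP, and the cultures had been shaken and treated with cytosine arabinoside, a drug that kills dividing cells. Because the animal and culture behind a cell are not in the labels, every response type was handled as 1 sample, and types were compared without a test, p-value or standard error. A standard deviation (SD) given below is the spread over the cells of a type.

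Polycomb proteins keep genes silent by modifying histones. PRC2 methylates lysine 27 of histone H3, PRC1 ubiquitinates histone H2A, and the PR-DUB complex removes that ubiquitin. In the developing cortex these complexes are known for timing the switch of progenitors from making neurons to making astrocytes.

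A cell had between 2937786 and 22131076 counted reads, with a median of 16965582. Counts were divided by a size factor per cell, and the result is called a normalized count. A gene's level in a response type is its mean normalized count over the cells. T-type cells 2 and 3 had the smallest size factors, 0.276 and 0.183, and the fewest genes with a read, 6319 and 7442. The median number of genes with a read was 9204 in T-type, 11356 in S-type, 11300 in M-type and 10944 in NR. All 12 astrocyte markers had reads in each type, led by *Fabp7* and *Slc1a3*, while *Sox10* of oligodendrocytes, *Slc17a7* of neurons, *Cldn5* of endothelium and *Rgs5* of mural cells had no read in any cell. Other genes of those lists were read in each type, with levels of 4126 to 16819 for *Olig1*, 651.2 to 7330 for *Stmn2*, 8.861 to 470.5 for *Kdr* and 5499 to 32297 for *Acta2*. The summed microglia markers were highest in NR, with a median of 520.1 normalized counts per cell against 36.61 in T-type and 2.398 in S-type. The part of these lists in the results below was not tested.

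The promoters of *Mtf2* and *Asxl2* are shown because these genes were lowest in T-type with cells apart from those of NR. The windows hold the 250 bases before the RefSeq start on GRCm38.p6, with each CpG dinucleotide in capitals, for *Mtf2* at chr5:108065424-108065673 and for *Asxl2* at chr12:3426607-3426856, both on the plus strand. The window of *Suz12*, a member that was not low in T-type, is given for comparison at chr11:79992856-79993105, plus strand.
Mtf2: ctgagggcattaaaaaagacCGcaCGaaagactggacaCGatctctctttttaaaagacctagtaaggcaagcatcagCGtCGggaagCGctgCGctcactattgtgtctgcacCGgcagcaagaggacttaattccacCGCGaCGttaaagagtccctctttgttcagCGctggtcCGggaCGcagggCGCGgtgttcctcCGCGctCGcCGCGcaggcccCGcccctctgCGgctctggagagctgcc
Asxl2: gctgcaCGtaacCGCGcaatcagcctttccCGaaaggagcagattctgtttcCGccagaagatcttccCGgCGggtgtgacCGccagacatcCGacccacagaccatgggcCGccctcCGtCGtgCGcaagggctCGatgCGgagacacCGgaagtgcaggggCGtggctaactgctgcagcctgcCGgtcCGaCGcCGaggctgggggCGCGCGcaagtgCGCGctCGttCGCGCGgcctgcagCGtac
Suz12: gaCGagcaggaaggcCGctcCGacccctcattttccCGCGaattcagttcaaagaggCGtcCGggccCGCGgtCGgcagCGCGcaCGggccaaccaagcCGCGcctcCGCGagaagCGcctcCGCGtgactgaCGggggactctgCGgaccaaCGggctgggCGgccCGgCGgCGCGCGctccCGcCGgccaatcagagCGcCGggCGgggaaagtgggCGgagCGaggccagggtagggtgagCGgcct

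These windows held 23 CpG for *Mtf2*, 31 for *Asxl2* and 37 for *Suz12*, against a median of 6 over 32851 promoter windows of the same length. A RefSeq window was found for 9 of the 10 members, all but *Yaf2*, and their 11 windows held between 2 and 37 CpG. The lowest value belonged to a second, internal start of *Mtf2*. The GC box GGGCGG, searched on both strands and partly overlapping the CpG count, was found 1 time each in the *Mtf2* and *Asxl2* windows and 3 times in that of *Suz12*. It was present in 32.7% of all windows. The letters CCAAT, present in 33.8% of all windows on either strand, were not in the *Mtf2* and *Asxl2* windows shown, and occurred 1 time in that of *Suz12* and 3 times in that of *Ezh2*. A match here describes the letters and not a bound factor.

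The members differed widely in abundance. On the scale of normalized counts per kilobase of exon, which allows genes to be compared, the mean over all 22 cells was 2330 for *Yaf2*, 528 for *Eed*, 429 for *Rnf2*, 279 for *Suz12* and 108 for *Mtf2*. It was 47.2 for *Ezh2*, 31.8 for *Pcgf6*, 28.6 for *Jarid2*, 25.9 for *Asxl2* and 13.4 for *Ezh1*. The mean was carried by few cells for several genes, since the median per kilobase over the 22 cells was 0.762 for *Pcgf6* and 2.84 for *Jarid2*. *Suz12*, *Eed*, *Rnf2* and *Yaf2* had a read in all 22 cells, *Mtf2* in 21, *Ezh2* in 20, *Asxl2* in 19, *Jarid2* in 18, and *Ezh1* and *Pcgf6* in 15 each. T-type cells had reads of 5 to 9 members, against 9 to 10 in S-type and M-type and 8 to 10 in NR.

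**Figure D1:**
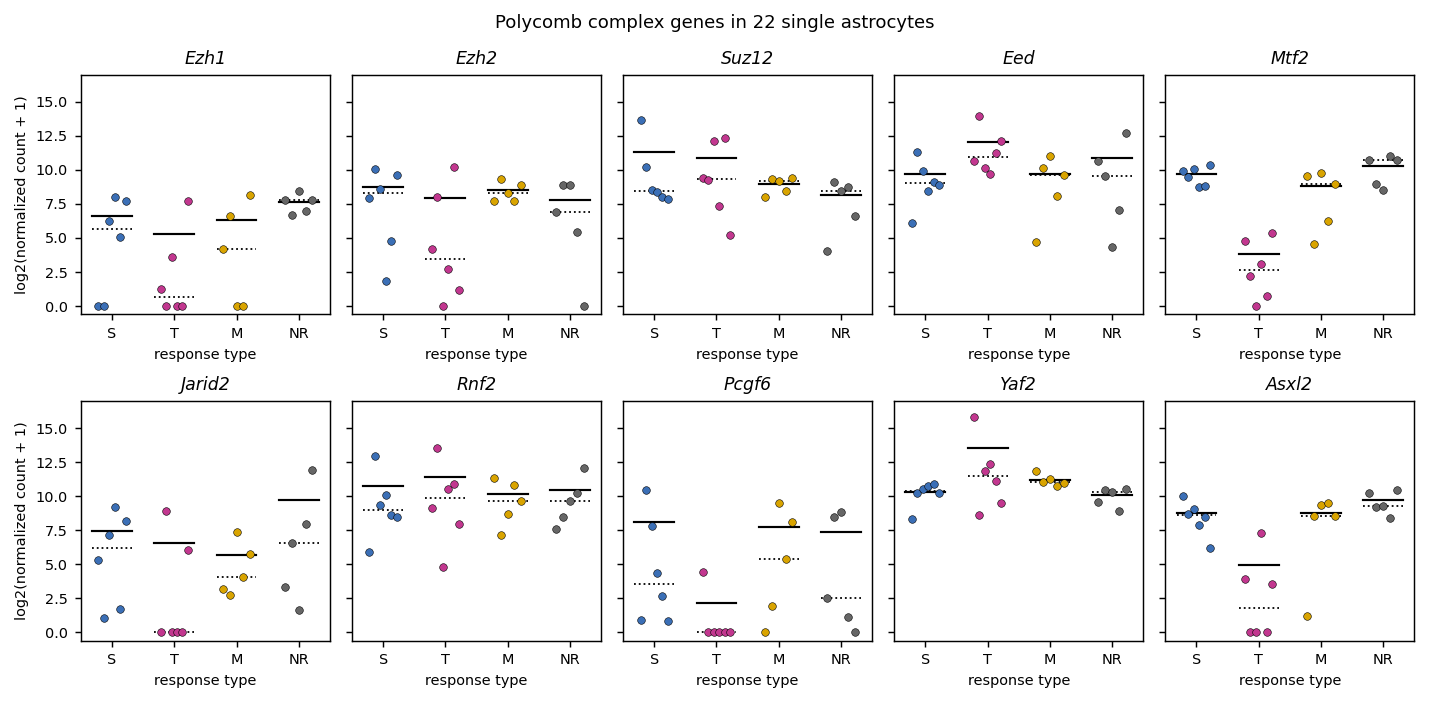
Normalized count of each Polycomb gene in each cell, as log2 of the normalized count plus 1 (y axis), by response type (x axis, with 6 cells for S and T and 5 for M and NR). Points are cells, solid lines the type level (mean before the log) and dotted lines the median. The 6 T-type cells lie below all S-type and NR cells for *Mtf2*, while for *Yaf2* and *Suz12* 1 cell lies far above the rest of its type.

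The question of the design was how the response types differ in gene expression. A gene was called higher or lower when its levels differed at least 2-fold. In T-type versus S-type, 2 members were higher and 4 lower, where 25.7% and 32.5% of the 12517 genes tested were called higher and lower. In T-type versus NR, 3 were higher and 5 lower, with 28.4% and 32.8% of 12508 genes called. In S-type versus NR, 1 was higher and 3 lower, with 25.1% and 22.5% of 12621 genes, and in M-type versus NR 1 was higher and 4 lower, with 19.8% and 28.1% of 12616 genes. All 10 members had a read in at least 5 cells, the limit for testing. Members were called in both directions in each comparison, and the counts are not read as particular to them. Cells of the types did not overlap for 1 member in T-type versus S-type (*Mtf2*, lower), 2 in T-type versus NR (*Mtf2* and *Asxl2*, lower), 0 in S-type versus NR and 1 in M-type versus NR (*Yaf2*, higher). Over all genes, the cells were apart in the higher and lower direction for 0.128% and 0.655%, 0.192% and 0.815%, 0.206% and 0.206%, and 0.277% and 0.325% in these comparisons. The median log2 ratio of the members was -0.86 for T-type versus S-type, -1.13 in T-type versus NR, -0.19 in S-type versus NR and -0.62 in M-type versus NR, beside medians over all genes of -0.09, -0.07, 0.03 and -0.20. The members' median moved with single cells: in T-type versus NR it was -0.05 without NR cell 5 and -2.08 without T-type cell 5, and without NR cell 5 it turned to 0.42 in S-type versus NR and 0.24 in M-type versus NR. With the median over cells in place of the mean it was -4.57 in T-type versus S-type and -3.21 in T-type versus NR. The medians over all genes were then -0.72 and -0.42, and the T-type medians of *Jarid2* and *Pcgf6* were 0, so that their ratios were bounds. The comparisons with NR share the same 5 NR cells, and both T-type comparisons share the T-type cells. *Mtf2*, *Asxl2*, *Yaf2* and *Pcgf6* stand in gene lists that the study selected on these cells, so their direction is not independent evidence.

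How depth was scaled mattered for T-type. When the reads of a type were pooled and set relative to their sum (pooled CPM), the median log2 ratio of all genes fell to -0.56 for T-type versus S-type and -0.54 for T-type versus NR, and 16.4% of genes were higher and 40.3% lower in the former and 18.6% and 40.7% in the latter. On that scale the members' median was -0.77 and -0.89. Relative to all genes the difference was thus smaller than with size factors, and the ratios below use size factors.

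**Figure D2:**
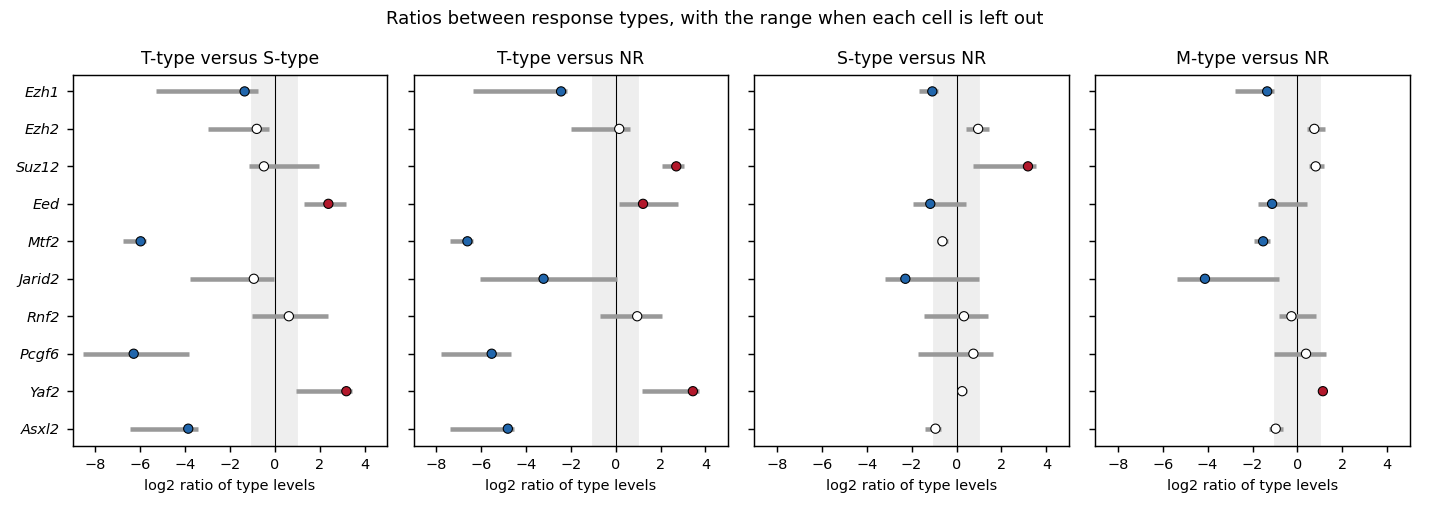
Log2 ratio of type levels (x axis) for each member (y axis) in 4 comparisons. Red points are at least 2-fold higher, blue points at least 2-fold lower, white points lie between, grey bars give the range when each cell is left out in turn, and the shaded band is less than 2-fold. The low end of *Pcgf6* in the T-type comparisons, without its 1 T-type cell with reads, is a bound. *Mtf2* lies at -5.97 and -6.60 in the T-type comparisons with short bars, while the bar of *Jarid2* reaches 0.07 in T-type versus NR.

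*Ezh2* and *Ezh1* encode the alternative methyltransferases of PRC2, with *Ezh2* known from dividing cells and *Ezh1* from resting cells. *Ezh1* was read in every NR cell, with normalized counts of 222, 103, 340, 124 and 215. In M-type it was 17.5, 98, 0, 0 and 278, and in S-type it ranged from 0 to 257.5 with a median of 52.63. In T-type 3 of 6 cells had no read, and the others held 1.41, 10.9 and 212. The responding types thus each had cells without *Ezh1* that NR lacked, but the ranges of all 4 types overlapped. The log2 ratio to NR was -2.43 for T-type, with a 95% counting interval of -2.60 to -2.25, -1.08 for S-type and -1.35 for M-type. The S-type value fell under 2-fold with mean CPM (-0.96) and without S-type cells 1, 2 or 5 or NR cell 3 (-0.81 at the nearest to 0). T-type cell 6 gave 94.5% of the T-type level, T-type versus NR was -6.35 without it, and T-type versus S-type moved from -1.34 to -5.27 without it and to -0.73 without S-type cell 4.

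By the mean level over all cells *Ezh2* passed 2-fold in none of the comparisons, with log2 ratios of -0.80 in T-type versus S-type, 0.16 in T-type versus NR, 0.96 in S-type versus NR and 0.75 in M-type versus NR. In M-type its normalized counts were even, at 208, 637, 307, 204 and 480. In NR they were 122, 465, 462, 42.5 and 0, and in S-type they ran from 2.628 to 1075 with a median of 318.2. T-type had the widest spread, from 0 to 1185 with a median of 11.18, and 81.2% of its level came from T-type cell 5. Without that cell T-type versus S-type was -2.95 and T-type versus NR turned to -1.99, and with the median over cells they were -4.83 and -3.45. By that median S-type versus NR was 1.38 and M-type versus NR 1.33, both past 2-fold. With all cells thinned to the smallest library T-type versus S-type was -1.11. All types overlapped. Per kilobase *Ezh2* exceeded *Ezh1* in 15 of 22 cells, which were 4 of 6 S-type, 4 of 6 T-type, 5 of 5 M-type and 2 of 5 NR cells.

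**Figure D3:**
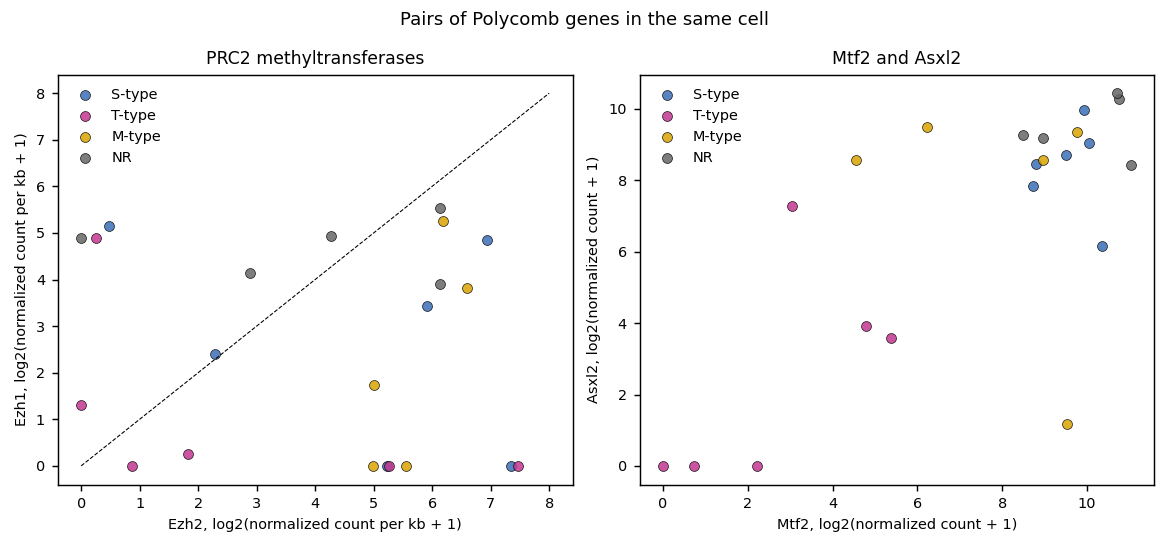
Left, *Ezh1* against *Ezh2* in each cell, as log2 of normalized counts per kilobase plus 1, with the line of equal level dashed. Right, *Asxl2* against *Mtf2*, as log2 of normalized counts plus 1. Points are single cells coloured by response type. *Ezh2* exceeds *Ezh1* in 15 of 22 cells, and the T-type cells lie at the lower left for *Mtf2* and *Asxl2*.

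*Suz12* encodes the scaffold subunit that PRC2 needs for its activity. Its normalized counts were 253, 634, 577, 352 and 667 in M-type and 15.2, 539, 344, 423 and 99.2 in NR. S-type cells ran from 237.5 to 13056 with a median of 342.8, and T-type cells from 37.15 to 5188 with a median of 639.7. S-type cell 1 stood far above the other S-type cells and gave 84.6% of the S-type level. The log2 ratio of S-type to NR was 3.18, and 0.74 without that cell. S-type cell 1 was also the cell with the largest share of reads from G2/M genes, 2.37%, and over the 22 cells *Suz12* and the G2/M share had a Spearman rho of 0.66, given as a description since both come from the same libraries. T-type cells 3 and 5 held 4391 and 5188. T-type versus S-type was -0.48, and 1.96 without S-type cell 1. T-type versus NR was 2.70 (2.05 to 3.06 when each cell was left out), but 0.90, under 2-fold, with the median over cells.

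*Eed* encodes the subunit that binds methylated H3K27 and stimulates PRC2. All 6 T-type cells had at least 824.5 normalized counts, with a median of 1979 and a highest value of 15710. S-type ran from 68.36 to 2569 with a median of 511.9, M-type held 25.6, 1132, 2042, 266 and 783, and NR held 1597, 758, 19.4, 131 and 6783. The T-type cells were on the high side, but overlapped with each other type. T-type versus S-type was 2.39 on the log2 scale and between 1.31 and 3.17 when each cell was left out. T-type versus NR was 1.22, but 0.14 without T-type cell 2, which gave 60.5% of the T-type level, and 2.79 without NR cell 5, which gave 73% of the NR level. It was also under 2-fold with pooled CPM (0.78), mean CPM (0.56) and TMM factors (0.88). Without NR cell 5 S-type versus NR went from -1.17 to 0.40 and M-type versus NR from -1.13 to 0.44.

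*Mtf2* encodes a Polycomb-like protein that brings PRC2 to unmethylated CpG islands, and it was the 1 member whose T-type cells lay below both the S-type and the NR cells. In T-type the normalized counts of the 6 cells were 26.7, 3.63, 0, 7.3, 0.648 and 40.4, from 88 reads in all. S-type cells ran from 424 to 1309 with a median of 853.4, and NR cells held 1731, 499, 360, 2103 and 1682. Each T-type cell was below each S-type and NR cell, as held for 0.655% of all genes against S-type and 0.815% against NR. In M-type it was 738, 22.4, 872, 73.7 and 498, so that M-type cell 2 fell within the T-type range and the other 4 cells above it. The levels were 1275 ± 790.7 in NR (SD, n = 5), 823 ± 353.9 in S-type (n = 6), 441 ± 383.4 in M-type (n = 5) and 13.11 ± 16.61 in T-type (n = 6), and the ranges of NR, S-type and M-type overlapped. T-type was 62.8-fold below S-type, a log2 ratio of -5.97 with a counting interval of -6.29 to -5.67, and 97.2-fold below NR, with -6.60 (-6.92 to -6.30). Leaving out each cell gave -6.75 to -5.71 and -7.38 to -6.34, and without T-type cells 2 and 3 the ratios were -5.46 and -6.09. T-type cells 5 and 6, with the largest size factors of that type, 1.54 and 1.56, had 1 and 63 reads. M-type versus NR was -1.53, and S-type versus NR was -0.63. Exons of *Mtf2* shared 6.93% of their bases with *Tmed5* on the opposite strand, and whether the counting used strand is not stated.

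*Jarid2* encodes a DNA-binding partner that helps recruit PRC2. It was sparse, with reads in 2 of 6 T-type cells, at 490 and 64 normalized counts. M-type held 8.13, 5.6, 163.6, 16.1 and 52.3, NR held 9.11, 91.9, 2.16, 248 and 3914, and S-type ran from 1.084 to 581.6 with a median of 89.27. One NR cell, cell 5, was above all other cells and gave 91.8% of the NR level. The lower calls of *Jarid2* against NR, -3.21 for T-type, -2.28 for S-type and -4.12 for M-type, became 0.07, 1.00 and -0.84 without that cell. T-type cell 2 gave 88.4% of the T-type level, and T-type versus NR was -6.06 without it. With the median over cells the ratios to NR were -7.21 for T-type, a bound since the T-type median was 0, -0.04 for S-type and -2.51 for M-type.

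Of the other PRC2 accessory genes, 4 passed the filter, so that 6 were tested with *Mtf2* and *Jarid2*. In T-type versus S-type 1 of the 6 was higher and 4 were lower, with a median log2 ratio of -2.52, and in T-type versus NR 1 was higher and 4 lower, with a median of -3.87. Over all genes 25.7% and 32.5% were higher and lower in the former comparison and 28.4% and 32.8% in the latter. M-type versus NR likewise had 2 of the 6 higher and 4 lower, with a median of -2.55 (all genes 19.8% and 28.1%). S-type versus NR had 1 higher and 2 lower (25.1% and 22.5%). Other parts of the wider list differed: in T-type versus NR 4 of 6 PRC2 core genes were higher and 1 lower, and 9 of 16 variant PRC1 genes higher and 3 lower. The following were named after their values were seen. *Phf19*, a paralog of *Mtf2*, had 3 T-type reads against 319 in S-type, a log2 ratio of -7.21 with a counting interval of -9.50 to -5.65. It stands in a list the study selected on these cells. *Phf1*, the remaining Polycomb-like paralog, went the other way at 2.29, but -1.09 at the lowest when a cell was left out. In T-type versus NR *Phf19* was at -5.52, but -1.70 without NR cell 2, and *Jarid2* was at 0.07 without NR cell 5. *E130012A19Rik*, without a T-type read, was at a bound of -4.53, and at -2.26 without NR cell 1. *Mtf2*, the last of the 4 lower genes, stayed at -6.34 or below. The median of -3.87 was not computed without these NR cells.

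*Rnf2* encodes RING1B, the main ubiquitin ligase of PRC1. Its normalized counts were 2544, 141, 421, 1789 and 788 in M-type and 191, 362, 813, 1203 and 4287 in NR. S-type ran from 59.48 to 7793 with a median of 518.7 and T-type from 27.27 to 11812 with a median of 1020. All types overlapped, and *Rnf2* passed 2-fold in none of the comparisons. Single cells set the level of several types, since T-type cell 2 gave 73.7% in T-type and S-type cell 2 gave 75.3% in S-type. T-type versus S-type was 0.63 and ranged from -1.03 to 2.39 when each cell was left out, and the direction turned to -0.35 with mean CPM.

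*Pcgf6* encodes the PCGF subunit that defines a variant PRC1 known from silencing germline genes. In T-type 5 of 6 cells had no read, and cell 1 had 15 reads, or 21.1 normalized counts. All 6 S-type cells had a read, from 0.7421 to 1387 with a median of 12.38. M-type held 0, 2.8, 738, 41 and 271, and NR held 4.86, 349, 454, 1.2 and 0. S-type, M-type and NR each had 2 cells above 200 normalized counts and T-type had none, and the ranges overlapped. The log2 ratio was -6.28 in T-type versus S-type (counting interval -7.12 to -5.55) and -5.52 in T-type versus NR (-6.36 to -4.80), and the former was -3.82 without S-type cell 2, the highest cell. Over the 22 cells *Pcgf6* had a Spearman rho of 0.73 with the number of genes with a read, which was lowest in T-type, and the part of detection in the low T-type values was not tested.

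*Yaf2* encodes a subunit that, like its paralog *Rybp*, binds RING1B in variant PRC1. It was the most abundant member per kilobase. NR cells held 775, 1424, 1295, 483 and 1453 normalized counts, and M-type cells held 3639, 2099, 2492, 1734 and 1957. Each M-type cell was above each NR cell, as for 0.277% of all genes in that comparison, and the log2 ratio was 1.13 (0.93 to 1.26 when each cell was left out). S-type ran from 316 to 1866 with a median of 1347, which differed from NR by 0.25. T-type ran from 395.3 to 58587 with a median of 2970, and T-type cell 1 gave 82.6% of the level. T-type versus S-type was 3.19 with that cell and 0.93 without it, and T-type versus NR was 3.44 and 1.18.

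*Asxl2* encodes a partner of the deubiquitinase BAP1 in PR-DUB. In T-type 3 of 6 cells had no read and the others held 14.1, 155.1 and 10.9 normalized counts. NR cells held 1230, 586, 618, 341 and 1391, S-type cells ran from 70.5 to 1008 with a median of 384.2, and M-type cells held 1.25, 376, 650, 721 and 378. Each T-type cell was below each NR cell, while T-type cell 4 overlapped with the lowest S-type cell. T-type versus NR was -4.80 (counting interval -5.08 to -4.53) and T-type versus S-type -3.85 (-4.14 to -3.58). Without T-type cell 4 these were -7.38 and -6.44, and without T-type cells 2 and 3 they were -4.21 and -3.27. S-type versus NR was -0.94 and M-type versus NR -0.97, both just under 2-fold. *Mtf2* and *Asxl2* had a Spearman rho of 0.60 over the 22 cells, the highest of the 45 pairs of members, which ran from -0.52 with a median of 0.00.

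The wider Polycomb list held 57 genes, members included, of which 54 had a read in at least 5 cells. In T-type versus S-type 13 were higher and 16 lower, with a median log2 ratio of -0.04, and in T-type versus NR 22 were higher and 14 lower, with a median of 0.46. All genes were higher and lower in 25.7% and 32.5% and in 28.4% and 32.8%. With the median over cells the list had 7 higher and 29 lower and 10 higher and 22 lower. By that measure 10.8% and 45.7% and then 16% and 40.6% of all genes were higher and lower. In S-type versus NR 14 were higher and 7 lower (median 0.44, all genes 25.1% and 22.5%), and in M-type versus NR 11 of 53 were higher and 15 lower (median 0.15, all genes 19.8% and 28.1%). *Bcor*, a corepressor in a variant PRC1, was higher in T-type by 4.33 than in S-type and by 3.91 than in NR on the log2 scale, and by 3.07 and 2.66 without T-type cell 6. *Asxl1*, the paralog of *Asxl2*, was at 4.39 in T-type versus S-type, but at -0.26 without T-type cell 1. *Mbd5*, a PR-DUB partner, had 2 T-type reads against 1320 in S-type, a log2 ratio of -9.81 with a counting interval of -12.86 to -7.96, and -7.70 without T-type cell 6. It also stands in a list the study selected on these cells. *Bcorl1*, a paralog of *Bcor*, had 1 T-type read against 279 in S-type and 148 in NR, with ratios of -8.06 (-13.36 to -5.57) and -7.62 (-12.93 to -5.12). Without T-type cell 6, which held that read, T-type versus S-type was -4.95 as a bound, and without NR cell 3 T-type versus NR was -4.18. S-type cell 3 held most of the S-type reads, as S-type versus NR fell from 0.44 to -5.56 without it. The T-type versus S-type ratio of *Bcorl1* thus rests on that S-type cell.

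Outside T-type, *Kdm2b*, which recruits variant PRC1 to CpG islands, was 3.81 higher in S-type than in NR on the log2 scale, 1.89 without S-type cell 2 and 7.58 without NR cell 2. *Scml2*, a PRC1-associated gene, had 541 S-type reads and 342 T-type reads against 1 read in NR, with log2 ratios of 8.75 (6.27 to 14.06) and 7.65 (5.16 to 12.95), and the former was 4.51 without S-type cell 1. T-type cell 6 held most of the T-type reads of *Scml2*, as T-type versus S-type went from -1.11 to -6.31 without it. The ratio of 7.65 thus rests on that cell. *Kdm6b*, a demethylase of H3K27, was at -1.98 in S-type versus NR and 0.13 without NR cell 1. In M-type versus NR *Rybp* was 3.41 higher and *Scml4* 3.31 higher (8.69 without NR cell 2), and *Phf19*, with no M-type read against 130 in NR, was at least 46.4-fold lower, taking 3 reads as the floor, but this bound moved from -5.53 to -1.71 on the log2 scale without NR cell 2.

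**Figure D4:**
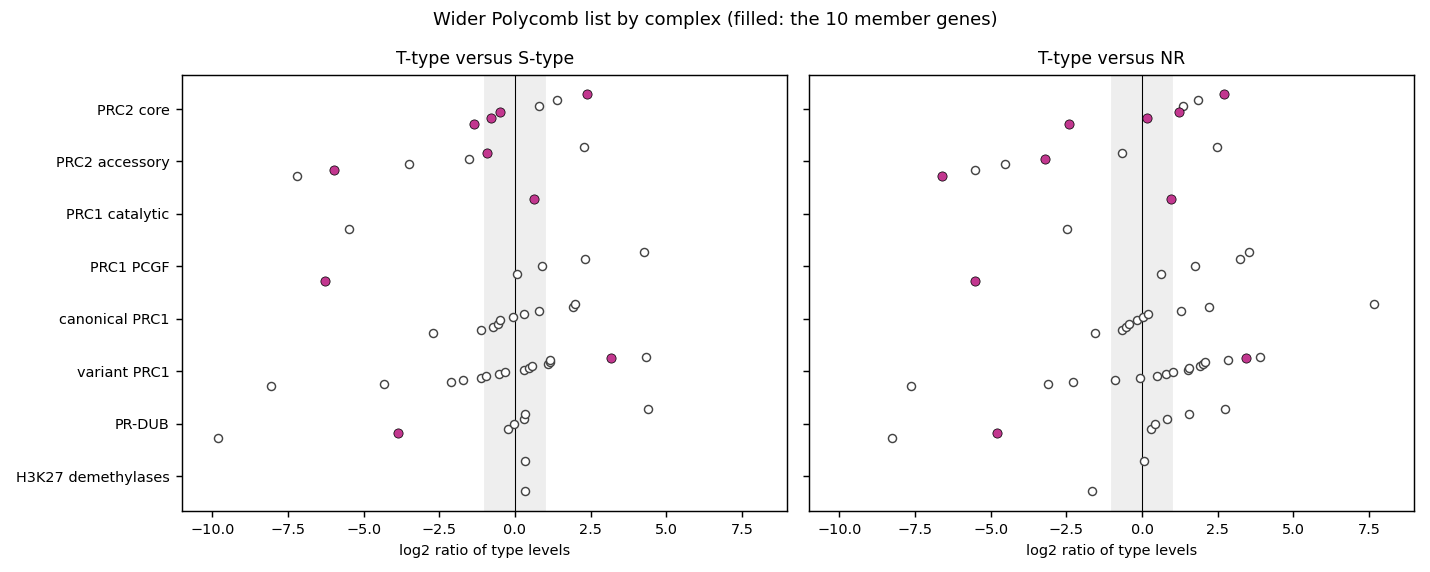
Log2 ratio of type levels (x axis) for the genes of the wider Polycomb list with a read in at least 5 cells, by complex (rows), in both T-type comparisons. Filled points are the 10 members, open points the other genes, and the shaded band is less than 2-fold. A gene without a T-type read is plotted at the ratio of the floor of 3 reads, which is a bound. In both panels 4 of the 6 PRC2 accessory genes lie below the band, where 32.5% and 32.8% of all genes do, and 4 of the 6 were also lower in M-type versus NR. In T-type versus NR *Jarid2*, 1 of the 4, is at 0.07 without NR cell 5 and at -6.06 without T-type cell 2.

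The genes most like a member were those with the highest Spearman rho over the 22 cells among 10748 genes compared, and since the cells share depth and types these are descriptions. *Fbf1* (0.86) and *Trim39* (0.78) were most like *Mtf2*, and *Pros1* (0.81) and *Arfgef2* (0.78) most like *Asxl2*. *Ano10* (0.88) and *Ttbk2* (0.85) were most like *Pcgf6*, *Prepl* (0.87) and *Map1b* (0.82) most like *Yaf2*, and *Tsnax* (0.82) and *Stx5a* (0.76) most like *Jarid2*. *Plxnc1* (0.88) and *Tmem104* (0.80) were most like *Ezh1*, but the rho with *Plxnc1* fell to 0.51 when all cells were thinned to the smallest library. For *Ezh2* the genes were *Limd2* (0.79) and *Gpr64* (0.78), and for *Eed* *Mrpl40* (0.73) and *Rdx* (0.72).

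Known Polycomb targets were read in few cells or in uneven amounts. Of 39 *Hox* genes, 19 had a read and 0 had a read in 5 cells, with 241 reads in total, of which 179 lay in M-type. *Cdkn2b*, an inhibitor of the cell cycle and a classical Polycomb target, had a level of 19136 in T-type, 384 in S-type, 431 in M-type and 1032 in NR, with reads in 21 cells. T-type cell 2 gave 98.2% of that T-type level, and the T-type median was 199.5. *Cdkn2a*, its neighbour, had a read in 13 cells and levels of 27.8 in T-type, 9.49 in S-type, 2.4 in M-type and 25.7 in NR. T-type cell 3 gave 75.1% of the T-type level of *Cdkn2a* and M-type cell 4 gave 86.4% of the M-type level. Its median was 0 in T-type, 0.9799 in S-type, 0.7002 in M-type and 15.82 in NR. Genes of S phase and G2/M differed between types as well, with median log2 ratios to NR of 4.16 and 4.55 in S-type, 2.65 and 0.82 in T-type and 1.40 and 0.43 in M-type. The S-type values were 1.95 and 0.51 without S-type cells 1 and 2, and the summed S phase level of S-type cells 3, 4 and 6 (9798, 6450 and 6025) lay within the NR range of 4732 to 13292. T-type cells 1, 4 and 5 (33620, 13984 and 117187) had summed S phase levels above that NR range. T-type cells 2, 3 and 6 (3826, 12840 and 11316) lay within or below it. For M-type, only cell 2 (34297) lay above it. For G2/M genes, T-type cells 1, 2, 3 and 5 (101196, 105164, 44258 and 79089) lay above the NR range of 10449 to 21616. T-type cells 4 and 6 lay within it. The T-type ratios without cells 1 and 5 were not computed. The part of the S phase and G2/M genes in the levels of the members was not tested.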

How the data were processed

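The 22 libraries were made from single cells by 2 rounds of antisense RNA amplification and stranded TruSeq preparation. The authors aligned the reads to GRCm38 with STAR and deposited raw counts of unique exonic reads per gene and cell (VERSE, a modified HTSeq), without normalization. Versions and the strand setting are not given in the sources used here, and without molecular identifiers a count is of amplified reads.

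Counts were scaled by median-of-ratios size factors, based on 3670 genes detected in all cells (NumPy 2.4.6, pandas 2.3.3, Python 3.11.15). Comparisons used genes detected in 5 or more cells, took 3 reads per type as the floor of a level, and called a gene at 2-fold. Counting intervals (95%, exact binomial split of reads, SciPy 1.17.1) cover counting error only. The 10 members are all named. From the wider list come the 2 most different genes in either direction of a comparison whose mean level reached 10, and for each member the 2 genes most like it. The most similar genes of *Suz12* and *Rnf2* are not reported here. Members and lists were chosen with earlier results of these data known. Exon lengths and overlaps came from GENCODE vM21 and promoters from RefSeq, both on the build of the alignment. Protein sequences were not used here. Alternatives were CPM of pooled reads, mean CPM, TMM factors (edgeR 4.0.16, R 4.3.3), the median over cells, thinning to 2937786 reads, a pseudocount of 1, dropping the filter or replacing it by a minimum level of 10, and leaving out cells. Leaving out T-type cells 2 and 3, and S-type cells 1 and 2 for the S phase and G2/M lists, was added after seeing the data. The ratio step was tested on simulated data. Figures used matplotlib 3.10.9.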

Additional observations from a re-analysis of the deposited data

Results flagged for a closer look

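Within each type, the highest and lowest cell of each member, of total reads and of genes with a read was compared with the others by Dixon's ratio, on log2(normalized count + 1) for the members. Of 48 groups 3 had a cell that stood apart, and chance alone marks about 1 in 20 groups. *Pcgf6* was at 21.1 normalized counts in T-type cell 1, where the other T-type cells were at 0. With the others all at 0, any value above 0 in that cell would have been marked, so the rate by chance does not apply to this group. *Yaf2* was at 316 in S-type cell 1, below the other S-type cells at 1174 to 1866. *Asxl2* was at 1.25 in M-type cell 1, below the other M-type cells at 376 to 721.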

How the results depend on the processing

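Of 23 member calls, 11 stayed past 2-fold under every other scaling, filter and pseudocount tried and when each cell was left out. These were *Eed*, *Mtf2*, *Pcgf6* and *Asxl2* in T-type versus S-type, *Ezh1*, *Mtf2*, *Pcgf6*, *Yaf2* and *Asxl2* in T-type versus NR, and *Ezh1* and *Mtf2* in M-type versus NR. For all genes this share was not computed. No paired analysis was possible as replicate numbers only follow sample order and no result came from a test. Each type is 1 sample of 5 or 6 cells, reads were amplified without molecular identifiers, and 1 T-type cell had 2937786 reads, so that a value of 0 says only that no read was counted.

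With the median over cells in place of the mean, the wider list in T-type versus S-type had 7 genes higher and 29 lower (13 and 16 with the mean), in T-type versus NR 10 higher and 22 lower (22 and 14), and in M-type versus NR 9 lower (15). Of all genes, 10.8% were then higher and 45.7% lower, 16% higher and 40.6% lower, and 24.1% lower in these comparisons. By the same median the members had 2 higher and 1 lower in S-type versus NR (1 and 3) and 2 higher in M-type versus NR (1), *Suz12* in S-type versus NR was 0.00 and *Eed* in M-type versus NR was 0.05. Over all genes 27.4% were higher and 18.9% lower in S-type versus NR, and 23.2% higher in M-type versus NR. With CPM of the pooled reads 24 genes of the wider list were lower in T-type versus NR, where 40.7% of all genes were lower. On that scale 1 member was lower in S-type versus NR, as with mean CPM, where 21.8% and 21.4% of all genes were lower. With TMM factors 11 genes of the wider list were lower in S-type versus NR, against 7, and 24.2% of all genes were lower. Without S-type cells 1 and 2, the richest in S phase and G2/M reads, 4 members were higher in T-type versus S-type (2 with them), and in S-type versus NR 0 members were higher and 5 lower and 11 genes of the wider list were lower. Over all genes 29.9% were then higher in T-type versus S-type, and 20.4% higher and 25.5% lower in S-type versus NR. The cause of these differences was not tested. Without T-type cells 2 and 3 the members had 2 higher and 4 lower in T-type versus S-type and 2 higher and 5 lower in T-type versus NR. Of all genes, 21.7% were then higher and 36.3% lower in the former and 24% and 36.4% in the latter.

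When each cell was left out, the members higher in T-type versus S-type numbered 1 to 3 (1 without T-type cell 1) and the wider list 8 to 15 (8 without T-type cell 1). Over all genes the share higher was then 22.6% to 27.7%, and 24.8% without T-type cell 1. In S-type versus NR the members higher numbered 1 to 3 (3 without S-type cell 5 and without NR cells 2, 3 or 5, and 2 without S-type cells 1, 4 or 6), the members lower 1 to 4 (1 without NR cell 5) and the wider list lower 5 to 11 (11 without NR cell 2). Over all genes 22.6% to 30.5% were higher, most without NR cell 2, and 20.6% to 25% lower, least without NR cell 5. In M-type versus NR the members higher numbered 0 to 3 (0 without M-type cell 1 or NR cell 4, and 3 without NR cells 2 or 3) and the members lower 2 to 6 (2 without NR cell 5). Over all genes 18% to 25.4% were higher, most without NR cell 2, and 26.5% to 31.4% lower, least without NR cell 5. *Jarid2* ranged from -6.06 to 0.07 in T-type versus NR and from -3.18 to 1.00 in S-type versus NR, and *Eed* from -1.96 to 0.40 in S-type versus NR and from -1.75 to 0.44 in M-type versus NR, each time with the highest value without NR cell 5.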
